A study of Bos taurus with 9 samples.

Results

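The genes described here are 9 genes of the steroid system: the nuclear receptors ESR1, PGR and NR3C1, the membrane-associated progesterone receptor components PGRMC1 and PGRMC2, the steroid-induced genes GREB1 and ZBTB16, and the receptor co-chaperones FKBP5 and FKBP4. They were chosen by symbol, with earlier results of these data known, from a table of 17162 bovine genes. All 9 were found in it. Each was measured in 9 libraries of BEND, the study's name for primary endometrial epithelial cells grown from Holstein cows. The 3 groups were CON, GA and GB, with 3 libraries in each.

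CON cells received neither hormone nor interferon. GA cells received 1 nM estradiol (E2) and 100 nM progesterone (P4) for 12 h, on one reading of the methods. GB cells received the same hormones for 12 h, and then 100 ng/mL interferon-tau (IFNT), the pregnancy signal of the ruminant conceptus, for a further 12 h. Every group grew in medium with fetal bovine serum, which may itself carry steroids, so CON is not known to be steroid-free. No group received E2, P4 or IFNT alone. The collection times of CON and GA are not stated, so IFNT and a longer culture cannot be told apart in the comparisons with GB. A possibly longer exposure to E2 and P4 in GB than in GA cannot be told apart from IFNT either. Nothing in the labels ties the replicates to separate cows, and the p-values then measure only the spread between cultures, which may be technical.

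Steroid receptors are transcription factors that wait for their hormone in a complex with HSP90 and its co-chaperones, and then bind DNA and recruit coactivators or corepressors. In the uterus, E2 acting through ESR1 is known to raise PGR, and P4 acting through PGR opposes many actions of E2. In the ruminant endometrium, the loss of PGR from the epithelium and its persistence in the stroma is a known feature of early pregnancy.

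The labelled cell type was checked first. All 14 epithelial markers in the table had a mean below 1 FPKM (sequenced fragments scaled by exon length and by the mapped reads of the library, the unit of every level given here), and the highest single value was 0.74 FPKM. Of these, 10, KRT7, KRT8, CDH1 and GRHL2 included, were listed at 0 in at least 1 library, and EPCAM was not analysed here. By contrast, all 14 stromal fibroblast markers were detected in every library, from 1.81 FPKM upward, with VIM at up to 9570 FPKM. The marker levels thus go against the epithelial label, and the cells are called BEND below. The study checked its cultures by immunofluorescence for the protein of KRT18 and reported them positive for cytokeratin. That staining was not analysed here, and the KRT18 gene was at 0.16 to 0.67 FPKM in these libraries. Summed over its list, the stromal signal was 17047 to 17637 FPKM in CON and 17193 to 17625 FPKM in GA. It was below both in GB, at 15447 to 15554 FPKM. VIM weighed most in it, at a mean of 9082 FPKM in CON and 7777 FPKM in GB. The markers did not all fall: PDGFRA averaged 150, 156 and 196 FPKM in CON, GA and GB. By the test described below, 7 of the 14 passed as lower (50.0%) and 1 as higher (7.14%) in GB vs. GA. In GB vs. CON 6 passed as lower (42.9%) and 1 as higher (7.14%). Of all tested genes, 19.2% and 17.3% passed as lower, and 9.87% and 16.2% as higher. The endothelial sum was low but higher in GB, at 4.91 to 6.29 FPKM against 2.07 to 4.15 FPKM elsewhere, with 6 of 8 markers at a mean below 1 FPKM. KDR averaged 0.0567, 0.0367 and 0.423 FPKM in CON, GA and GB. Of the 2 tested endothelial markers, 1 passed as higher in GB vs. GA (50.0%, against 9.87% of all tested genes) and none in GB vs. CON. Not all endothelial markers rose: VWF averaged 0.343, 0.353 and 0.303 FPKM in CON, GA and GB, and TEK 0.197, 0.183 and 0.147 FPKM. EMCN ranged from 0.20 to 2.52 FPKM in GA and from 1.95 to 3.03 FPKM in GB, which overlapped. Of 7 immune markers, 5 had a mean below 1 FPKM. CD14, at 16.69 to 23.27 FPKM, and CD68, at 3.13 to 4.43 FPKM, were detected in every library. The immune sum overlapped between the groups. The part of these marker shifts in the results with GB was not tested. In RNA from bulk cultures, fewer cells of a type and less RNA per cell cannot be told apart.

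**Figure D1:**
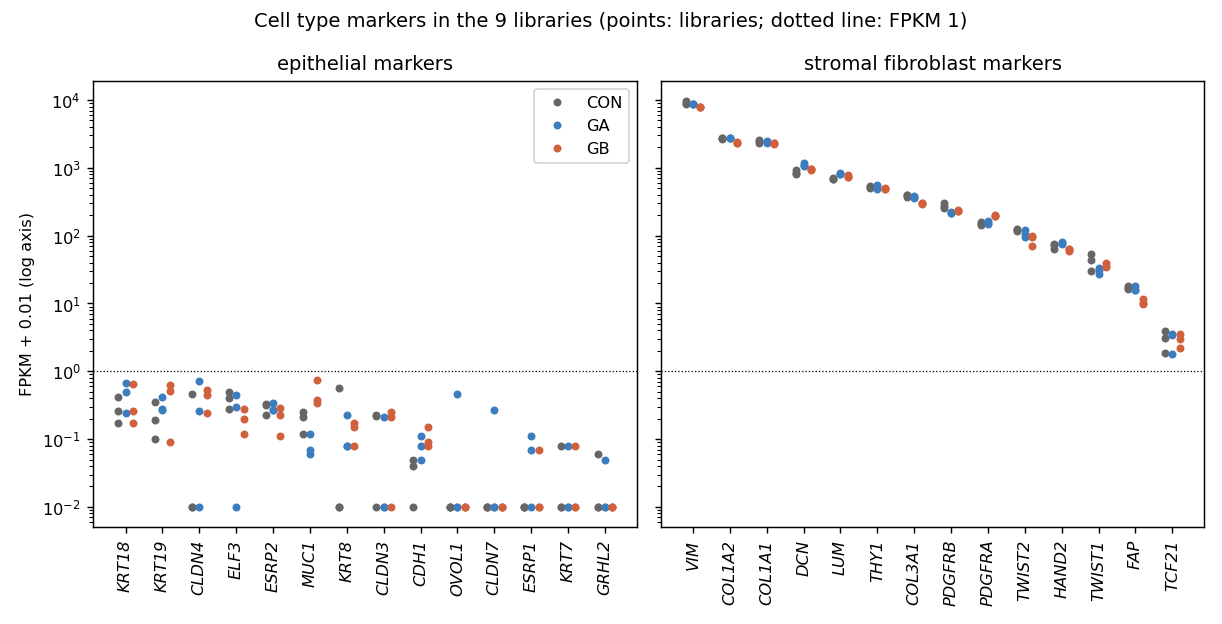
FPKM + 0.01 on a log axis for the epithelial (left) and stromal fibroblast (right) marker genes, with 1 point per library and the group shown by color. All epithelial points lie below the dotted line at 1 FPKM, and all stromal points lie above it.

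The treatment itself left its mark where the labels place it. MX2, an interferon-stimulated antiviral gene, averaged 0.0633 FPKM in CON, 0.107 FPKM in GA and 757 FPKM in GB. ISG15, an interferon-induced ubiquitin-like protein, averaged 4.50 FPKM, 4.25 FPKM and 5582 FPKM. The FPKM of a library summed to 1397166 to 1425069 in CON and 1395622 to 1427451 in GB. In GA the sums were higher, at 1435457 to 1442723. Between 14452 and 14893 genes were above 0. FPKM values do not give the reads behind a gene, so the precision of low values such as those of GREB1 and ZBTB16 is not known.

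A gene was said to pass a comparison when its Benjamini-Hochberg adjusted p over 12578 tested genes was under 0.05 in limma, and to be called when its fold change on the log2(FPKM + 0.5) scale (log2FC) was also above 1 in size. Of the 9 genes, 8 reached the mean of 0.5 FPKM needed for testing, and ZBTB16 did not. GREB1 reached that mean through GA and GB, since its CON mean was 0.193 FPKM. Without any filter it passed as well, with an adjusted p of 0.00475 for GA and 5.98e-05 for GB, each against CON.

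In GA vs. CON, which asks what the hormones did, 1 of the 8 tested genes passed, GREB1. Among all genes tested, 0.246% passed as higher, 0.207% passed as lower and 0.0716% were called. In GB vs. GA, which compares cells with and without IFNT, 3 of the 8 passed as higher, PGR, NR3C1 and PGRMC2. There, 9.87% of all genes passed as higher, 19.2% passed as lower and 3.64% were called. In GB vs. CON, 5 of the 8 passed as higher, PGR, NR3C1, PGRMC2, GREB1 and FKBP5, against 16.2% of all genes higher, 17.3% lower and 4.01% called. None of the 8 passed as lower in any comparison, and those with an unadjusted p under 0.05, 3 in GA vs. CON, 3 in GB vs. GA and 5 in GB vs. CON, all had a positive log2FC. The share of all tested genes at such an unadjusted p was not computed. Counts at it, here and below, thus have no background beside them. The 3 comparisons share libraries, so their values are set side by side and not counted as separate evidence. Both these genes and the gene lists below were chosen with earlier results of these data known, so their shares are only descriptions.

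**Figure D2:**
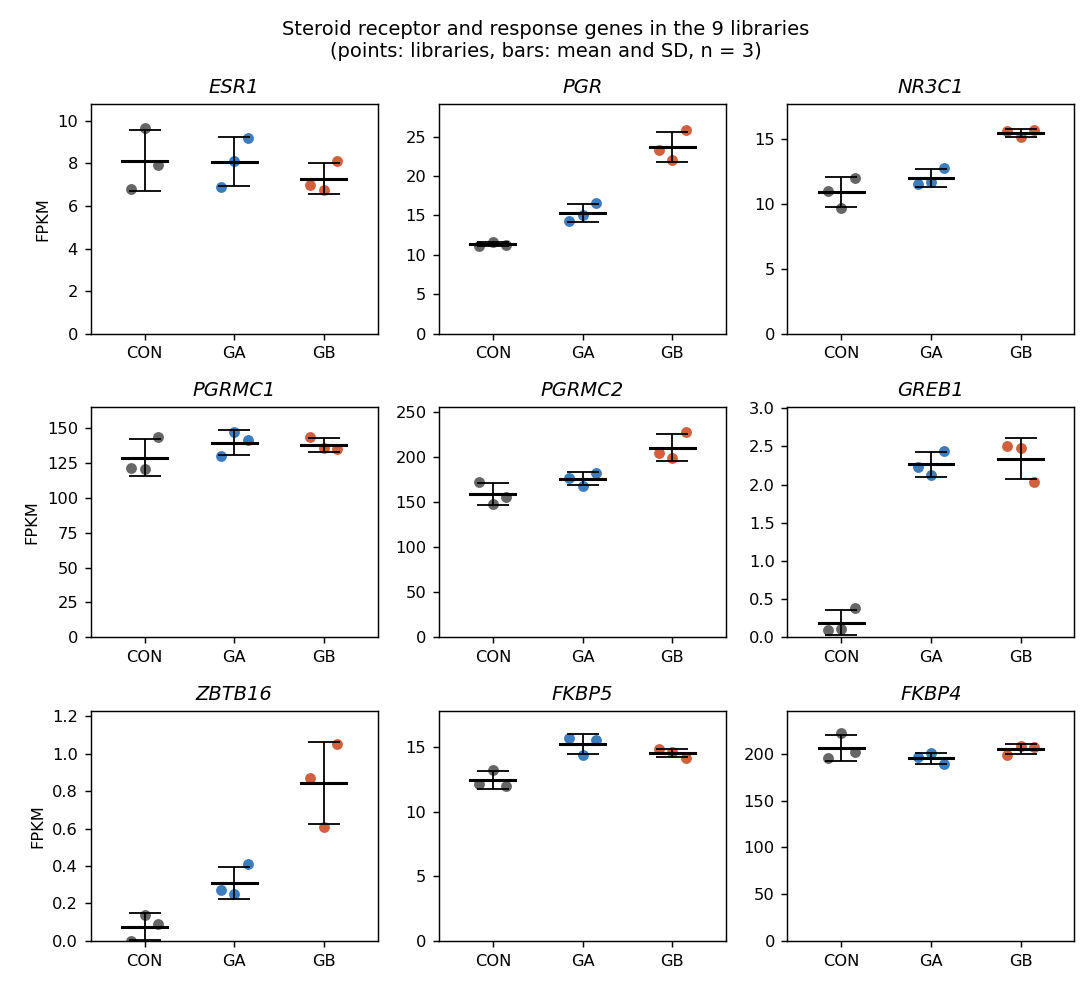
FPKM of the 9 genes in CON, GA and GB, each panel on its own axis from 0, with 1 point per library and bars for the mean and SD of 3 libraries. GREB1 was near 0 in CON and between 2.03 and 2.51 FPKM in all 6 hormone-treated libraries, PGR and ZBTB16 were lowest in CON and highest in GB without overlap, and NR3C1 and PGRMC2 were highest in GB.

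ESR1, the receptor through which E2 regulates most of its uterine target genes, was detected at overlapping levels in all groups and passed no comparison. The CON libraries held 6.79, 9.67 and 7.95 FPKM. The GA libraries held 6.90, 8.13 and 9.21 FPKM, and the GB libraries 6.99, 6.73 and 8.12 FPKM. All groups overlapped. The log2FC was -0.0049 in GA vs. CON (95% CI -0.33 to 0.32, adjusted p = 0.989), -0.14 in GB vs. GA (95% CI -0.46 to 0.19, adjusted p = 0.516) and -0.14 in GB vs. CON (95% CI -0.47 to 0.18, adjusted p = 0.486). These intervals leave room for changes of that size in either direction.

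PGR, the nuclear progesterone receptor and a known target of ESR1, was highest in GB. It was 11.18, 11.68 and 11.22 FPKM in CON. GA held 14.32, 15.06 and 16.61 FPKM, and GB 23.30, 22.00 and 25.79 FPKM. No 2 groups overlapped, and the spread within CON was small, at 11.4 ± 0.278 FPKM (SD, n = 3). GB vs. GA gave a log2FC of 0.61 ± 0.078 (SE; adjusted p = 0.000447), a mean 54.6% above GA. GB vs. CON gave a log2FC of 1.03 ± 0.078 (adjusted p = 1.18e-05), so PGR was called there, at 2.09 times the CON mean. Both rises passed under all 21 alternative settings, but the call in GB vs. CON sits at the fold threshold, and without the third GB library the log2FC was 0.96. The GA vs. CON difference, a log2FC of 0.41 (95% CI 0.24 to 0.59), did not pass (adjusted p = 0.0628) although its libraries did not overlap.

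NR3C1, the glucocorticoid receptor, which can also bind P4 weakly, was higher in GB. Its CON libraries were at 11.05, 9.72 and 12.01 FPKM and its GA libraries at 11.53, 11.70 and 12.82 FPKM, 2 overlapping groups. The GB libraries were at 15.65, 15.16 and 15.76 FPKM, above every other library. The log2FC was 0.36 ± 0.084 in GB vs. GA (SE; adjusted p = 0.0117), which passed under all 21 alternatives, and 0.49 ± 0.084 in GB vs. CON (adjusted p = 0.00198). The latter no longer passed when the GC content of the reads was a covariate (log2FC 0.22, adjusted p = 0.319). GA vs. CON did not pass (log2FC 0.13, adjusted p = 0.401).

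The heme-binding membrane proteins PGRMC1 and PGRMC2 have both been linked to responses to P4. PGRMC1 had 121.53, 120.61 and 143.80 FPKM in the CON libraries, 129.96, 147.08 and 141.37 FPKM in GA and 143.73, 135.57 and 134.62 FPKM in GB. The 3 groups overlapped, and no comparison passed (log2FC between -0.014 and 0.12, adjusted p from 0.316 to 0.908). PGRMC2 had 171.74, 148.11 and 155.56 FPKM in CON and 176.71, 167.59 and 181.71 FPKM in GA. In GB it reached 204.31, 198.48 and 227.53 FPKM, and these lay above all 6 other libraries. The PGRMC2 log2FC was 0.41 ± 0.069 in GB vs. CON (SE; adjusted p = 0.00198) and 0.26 ± 0.069 in GB vs. GA (adjusted p = 0.0208). GB vs. GA no longer passed without the first or second GA library or the third GB library (log2FC 0.26, 0.23 and 0.20, adjusted p = 0.0523, 0.0748 and 0.0692), and GB vs. CON no longer passed with the GC covariate (log2FC 0.20, adjusted p = 0.297).

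Whether the 2 PGRMC genes moved differently was tested within libraries, where scaling between libraries cancels. The ratio of PGRMC1 to PGRMC2 was 0.708, 0.814 and 0.924 in CON, and 0.735, 0.878 and 0.778 in GA. It was lower in GB, at 0.703, 0.683 and 0.592, below every library of the other groups. The log2 ratio was lower by 0.27 on average in GB than in GA and by 0.30 than in CON, both with a two-sided exact permutation p of 0.1, the smallest that 3 against 3 libraries can give. The adjusted p over the 6 ratio comparisons was 0.15. This design cannot reach 0.05, so the p says nothing for or against a difference.

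GREB1, an estrogen-induced coactivator that binds ESR1, had the largest log2FC of the 9 genes. Its CON values were 0.09, 0.11 and 0.38 FPKM. The GA libraries were at 2.23, 2.12 and 2.44 FPKM and the GB libraries at 2.51, 2.48 and 2.03 FPKM. All 6 hormone-treated libraries lay far above CON and overlapped with each other. The mean was 11.7 times the CON mean in GA and 12.1 times in GB, ratios that rest on the low CON values and become 22.6 and 23.4 without the third CON library. On the log2(FPKM + 0.5) scale, which understates changes of low genes, the log2FC was 2.02 ± 0.19 in GA vs. CON (SE; adjusted p = 0.00639) and 2.05 ± 0.19 in GB vs. CON (adjusted p = 4.67e-05). GB vs. GA gave 0.037 (95% CI -0.40 to 0.47, adjusted p = 0.907). The GA vs. CON call held in 19 of 21 alternatives and did not pass with the GC covariate, although the log2FC there was 1.84 (adjusted p = 0.280).

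ZBTB16, also known as PLZF, is a transcription factor induced by P4 and glucocorticoids in uterine stromal cells. It was listed at 0, 0.14 and 0.09 FPKM for CON, 0.27, 0.25 and 0.41 FPKM for GA and 0.87, 0.61 and 1.05 FPKM for GB. The groups did not overlap, and the order of the groups was that of PGR. Its mean over all libraries, 0.410 FPKM, lay under the filter, so it was fitted only without a filter. In that fit the log2FC was 0.72 ± 0.15 in GB vs. GA (SE; adjusted p = 0.0119) and 1.21 ± 0.15 in GB vs. CON (adjusted p = 0.000731). GA vs. CON did not pass (log2FC 0.49, adjusted p = 0.199). With a pseudocount of 0.1, the GB vs. GA log2FC was larger, 1.19, but no longer passed (adjusted p = 0.0528). The 11 alternatives for ZBTB16 were other pseudocounts and single libraries left out. A GC covariate, a replicate block and other scalings were not tried for it.

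FKBP5, a co-chaperone of the HSP90 complex whose gene is induced by glucocorticoids and progestins and which lowers hormone binding of NR3C1, passed in 1 comparison. Its CON libraries were at 12.17, 13.23 and 11.99 FPKM, the GA libraries at 15.74, 14.36 and 15.57 FPKM and the GB libraries at 14.82, 14.62 and 14.19 FPKM. Every hormone-treated library lay above every CON library, and GA and GB overlapped. GB vs. CON passed narrowly (log2FC 0.22 ± 0.066, SE; adjusted p = 0.0322), while GA vs. CON, with the larger log2FC of 0.28 (95% CI 0.13 to 0.43), did not (adjusted p = 0.0905). The GB vs. CON result failed in 10 of 21 alternatives, 5 of them a single library left out (log2FC 0.19 to 0.23): the first or the third CON library (adjusted p = 0.0846 and 0.0921) or any of the GB libraries (0.0892, 0.0829 and 0.0578).

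FKBP4, the related co-chaperone that supports hormone binding and transport of PGR and NR3C1, passed no comparison. The CON libraries held 195.29, 222.22 and 202.71 FPKM, the GA libraries 196.58, 200.67 and 189.39 FPKM and the GB libraries 198.92, 209.11 and 207.87 FPKM, all overlapping. The log2FC lay between -0.078 and 0.070 and no comparison passed (adjusted p from 0.362 to 0.925). The interval in GB vs. CON ran from -0.13 to 0.11. FKBP4 exceeded FKBP5 by 16.0 to 16.9 times in CON, 12.2 to 14.0 times in GA and 13.4 to 14.6 times in GB. The log2 ratio of FKBP5 to FKBP4 was higher by 0.37 in GA and by 0.23 in GB than in CON, with no overlap with CON (exact permutation p = 0.1 for each, the smallest this design can give, adjusted p = 0.15). GB and GA differed by -0.14 in this log2 ratio (exact permutation p = 0.2).

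**Figure D3:**
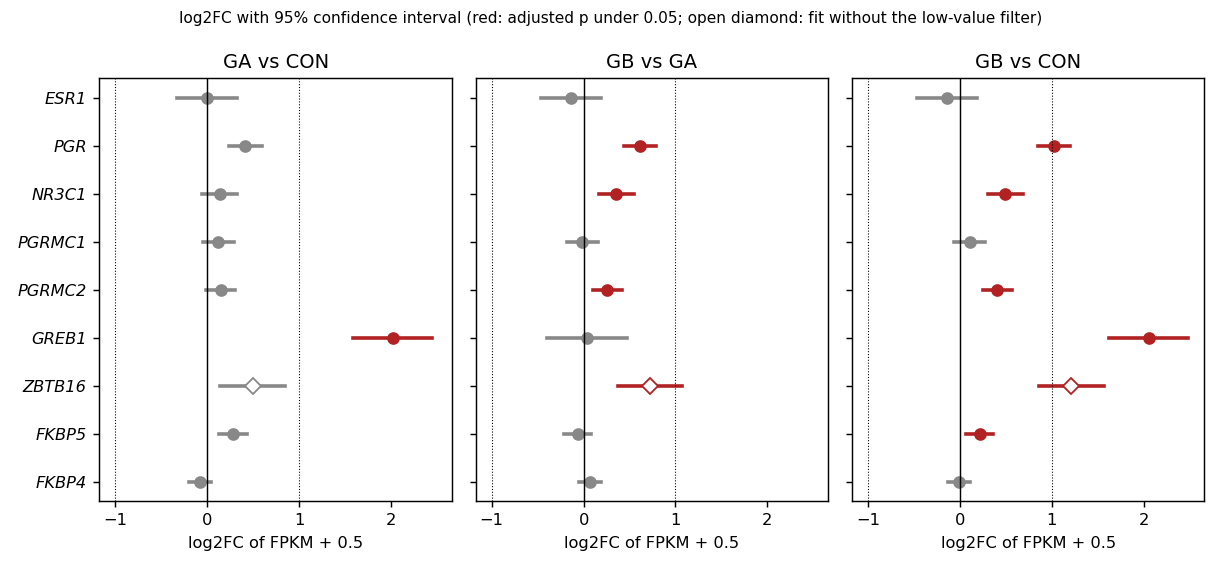
log2FC on the log2(FPKM + 0.5) scale with its 95% confidence interval for the 9 genes in GA vs. CON, GB vs. GA and GB vs. CON. Red marks an adjusted p under 0.05, the open diamond marks ZBTB16 from the fit without a filter, and GREB1 at about 2 stands to the right in both comparisons with CON but at 0.037 in GB vs. GA.

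Across the 3 groups, the moderated F test of limma gave an adjusted p of 3.51e-05 for PGR, 5.83e-05 for GREB1, 0.00450 for NR3C1, 0.00501 for PGRMC2 and 0.0211 for FKBP5. ESR1, PGRMC1 and FKBP4 did not pass it (adjusted p = 0.637, 0.375 and 0.415). Set against the CON mean, individual hormone-treated libraries reached 1.89 to 2.14 for GREB1 on the log2 scale, while PGR ran from 0.32 to 0.53 in GA and from 0.92 to 1.15 in GB. NR3C1 in GB ran from 0.46 to 0.51, a narrow band next to its range of 0.08 to 0.23 in GA.

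**Figure D4:**
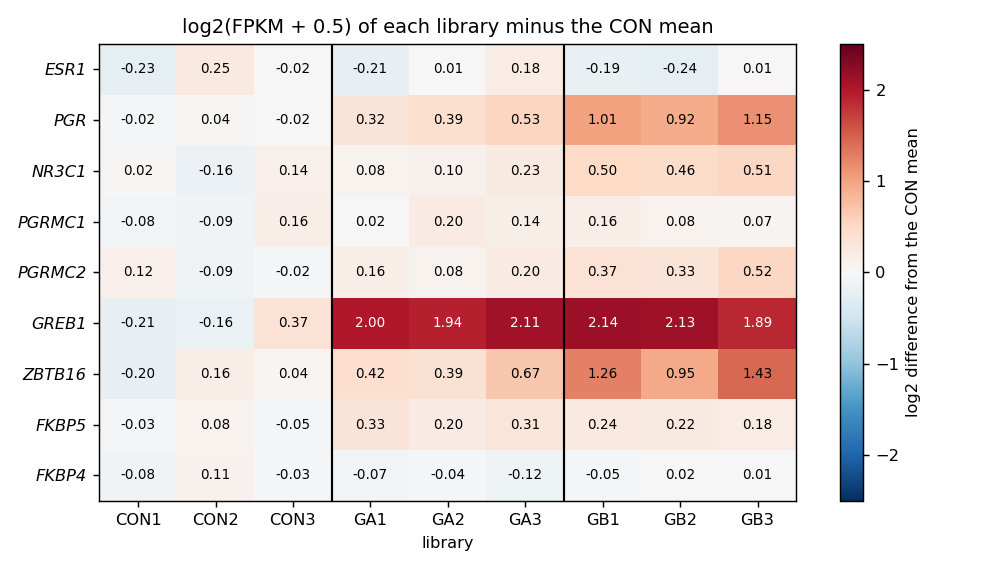
Heat map of log2(FPKM + 0.5) in each library minus the CON mean of the gene, with the difference printed in each cell, red for higher and blue for lower. The GREB1 row is evenly red from 1.89 to 2.14 in GA and GB, the PGR and ZBTB16 rows deepen from GA to GB, and the ESR1, PGRMC1 and FKBP4 rows stay within 0.25 of CON.

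FPKM is scaled to exon length, so the levels of different genes can be set side by side. In CON the order was FKBP4, then PGRMC2, then PGRMC1, and these 3 did not overlap. FKBP5 followed without overlapping PGR, while NR3C1 overlapped with both. ESR1 was lower still, and GREB1 and ZBTB16, which overlapped, were lowest. In GA the first 3 were ordered as in CON, and PGR and FKBP5, which overlapped, came before NR3C1, ESR1, GREB1 and ZBTB16. In GB, PGR, NR3C1, FKBP5, ESR1, GREB1 and ZBTB16 followed each other without overlap. PGRMC2 overlapped with FKBP4 at the top in GB. The mean of PGR was 1.04 times that of NR3C1 in CON, 1.28 times in GA and 1.53 times in GB.

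The other receptors of the family were mostly low. Of 14 further steroid and related receptors in the table, 7 were tested. ESR2, the second estrogen receptor, averaged 0.211 FPKM over the 9 libraries and NR3C2, the mineralocorticoid receptor, 0.0167 FPKM, so both were near the floor of the table. The membrane estrogen receptor GPER1 averaged 0.464 FPKM. Of the estrogen-related orphan receptors, ESRRA averaged 34.8 FPKM, ESRRG 0.437 FPKM and ESRRB 0.0322 FPKM. The PGRMC relatives NENF and CYB5D2 averaged 315 and 21.6 FPKM.

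Among the membrane progestin receptors of the PAQR family, PAQR8 was higher and PAQR6 lower in GB vs. CON. Of the 7 further receptors tested, 1 passed as higher and 1 as lower there, 14.3% each. These shares lay below those of all tested genes, 16.2% higher and 17.3% lower. PAQR8 ranged from 4.17 to 6.38 FPKM in CON and from 7.16 to 8.64 FPKM in GB (log2FC 0.51, adjusted p = 0.0262). PAQR6 ranged from 5.21 to 6.87 FPKM in CON and from 3.83 to 4.82 FPKM in GB (log2FC -0.52, adjusted p = 0.0201). Neither passed in the other 2 comparisons. PAQR8 no longer passed without the first or the third CON library or the second or the third GB library (adjusted p = 0.0696, 0.0518, 0.0890 and 0.0522), and PAQR6 without the first or second CON library or the first or the third GB library (adjusted p = 0.0657, 0.0639, 0.0665 and 0.0593). With the GC covariate neither passed, at a log2FC of 0.73 (adjusted p = 0.153) and -0.52 (adjusted p = 0.295). PAQR7 averaged 1.48 FPKM and PAQR5 0.242 FPKM. PAQR9 ranged from 0.38 to 0.50 FPKM in CON and from 0.18 to 0.43 FPKM in GA, and it was listed at 0 in all 3 GB libraries. With a mean of 0.258 FPKM it was not tested, and the reads behind such low values are not known.

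Of the 15 chaperones and co-chaperones of the receptor complex, FKBP5 and FKBP4 not counted, 1 passed as higher in GA vs. CON, 5 in GB vs. GA and 8 in GB vs. CON, and none passed as lower. In GA vs. CON, 7 of the 15 were at an unadjusted p under 0.05 by limma. The higher shares were 6.67%, 33.3% and 53.3%, against 0.246%, 9.87% and 16.2% of all tested genes. Their median log2FC was 0.082, -0.012 and 0.11 in the 3 comparisons, against 0.061, -0.075 and -0.016 over all tested genes. DNAJA1, an HSP40 co-chaperone, rose from 229 FPKM in GA to 391 FPKM in GB (log2FC 0.77, adjusted p = 3.49e-07). BAG1, a nucleotide exchange factor of HSP70 that also binds steroid receptors, rose from 127 to 220 FPKM (log2FC 0.79, adjusted p = 3.65e-05). HSPA8, the constitutive HSP70, rose less, from 1597 to 1831 FPKM (log2FC 0.20, adjusted p = 0.00330). HSP90AB1, the constitutive HSP90, rose from 999 FPKM in CON to 1140 FPKM in GB (log2FC 0.19, adjusted p = 0.00199), but did not pass with the GC covariate (log2FC 0.14, adjusted p = 0.139). PTGES3, the p23 co-chaperone, was the only one to pass in GA vs. CON and was picked out after its values were seen. It ranged from 506 to 580 FPKM in CON and from 693 to 751 FPKM in GA (log2FC 0.42, adjusted p = 0.0392), and leaving out any 1 of 6 libraries, namely the first or second CON library, any GA library or the second GB library, left it not passing (log2FC 0.38 to 0.44, adjusted p from 0.0631 to 0.153), as did the GC covariate (log2FC 0.19, adjusted p = 0.641).

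Among receptor coregulators and pioneer factors, 17 of 19 were tested. By limma 0 passed in GA vs. CON (2 at an unadjusted p under 0.05), 1 was higher and 3 lower in GB vs. GA, and 2 were higher and 5 lower in GB vs. CON. Of the list, 17.6% passed as lower in GB vs. GA, near the 19.2% of all tested genes, and 29.4% in GB vs. CON, against 17.3%. The higher shares, 5.88% and 11.8%, lay below the 9.87% and 16.2% of all genes. The median log2FC was -0.0061, -0.087 and -0.10. The coactivator NCOA1, or SRC-1, rose from 17.7 FPKM in GA to 23.1 FPKM in GB (log2FC 0.38, adjusted p = 0.00170). SPEN, a corepressor, fell from 17.7 to 14.5 FPKM in GB vs. GA (log2FC -0.28, adjusted p = 0.00637). CARM1, an arginine methyltransferase and coactivator, was lower in GB vs. CON (log2FC -0.21, adjusted p = 0.0149) but did not pass without the second GB library (log2FC -0.18, adjusted p = 0.0575) or with the GC covariate (log2FC -0.12, adjusted p = 0.503), and with GC and the replicate block its log2FC was -0.0042 (adjusted p = 0.992).

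Estrogen response genes other than GREB1 did not pass with hormones alone. Of 28 listed genes 25 were in the table and 17 were tested, and 0 passed in GA vs. CON by limma (3 at an unadjusted p under 0.05, median log2FC -0.063). In GB vs. GA 1 was higher and 5 were lower, and in GB vs. CON 3 were higher and 5 lower, with medians of -0.087 and -0.14. The lower share was 29.4% in both, against 19.2% and 17.3% of all tested genes, and the higher share 5.88% and 17.6%, against 9.87% and 16.2%. CCND1, the cell cycle gene cyclin D1, fell from 857 FPKM in GA to 632 FPKM in GB (log2FC -0.44, adjusted p = 9.92e-06). RAB31, a small GTPase, fell from 182 to 125 FPKM (log2FC -0.54, adjusted p = 4.23e-06), and EGR3, an early growth response factor, from 19.8 to 11.8 FPKM (log2FC -0.72, adjusted p = 0.00220). MYC rose from 76.7 to 112 FPKM (log2FC 0.55, adjusted p = 0.000555). TGFA, a ligand of the EGF receptor chosen after its values were seen, ranged from 12.91 to 17.47 FPKM in CON and from 18.21 to 27.01 FPKM in GA, without overlap, but did not pass there (log2FC 0.61, adjusted p = 0.102).

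Of 33 progestin and glucocorticoid response genes, 31 were in the table and 25 were tested. In GA vs. CON 1 passed as higher and 1 as lower, in GB vs. GA 6 as higher and 4 as lower, and in GB vs. CON 9 as higher and 2 as lower. In GA vs. CON, 12 of the 25 were at an unadjusted p under 0.05 by limma, in either direction. The higher shares were 4.0% in GA vs. CON, 24.0% in GB vs. GA and 36.0% in GB vs. CON. Those of all tested genes were 0.246%, 9.87% and 16.2%. The lower share in GA vs. CON was 4.0%, against 0.207% of all genes. In GB vs. GA and GB vs. CON the lower shares, 16.0% and 8.0%, lay below the 19.2% and 17.3% of all genes. The median log2FC was 0.14, 0.017 and 0.11. DKK1, a secreted WNT antagonist induced by P4 in the endometrium, was the only called gene of the 6 lists. CON libraries held 279.73, 276.04 and 251.25 FPKM, GA libraries 321.46, 323.57 and 290.42 FPKM and GB libraries 658.57, 689.22 and 668.38 FPKM. The log2FC was 1.11 ± 0.057 in GB vs. GA (SE; adjusted p = 5.87e-07) and 1.32 ± 0.057 in GB vs. CON (adjusted p = 1.50e-07), while GA vs. CON did not pass (log2FC 0.21, adjusted p = 0.115).

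ZFP36, which destabilizes inflammatory mRNAs, rose from 57.0 FPKM in GA to 94.8 FPKM in GB (log2FC 0.73, adjusted p = 3.91e-05). MT2A, a metal-binding protein, rose from 840 to 1342 FPKM (log2FC 0.67, adjusted p = 0.00622), a value that is uncertain because metallothionein genes are near-identical copies whose reads can be split. BHLHE40, a circadian repressor, fell from 174 to 146 FPKM (log2FC -0.25, adjusted p = 0.00419).

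TSC22D3, or GILZ, a standard glucocorticoid target, was picked out after its values were seen because its pattern differed from those of FKBP5 and ZBTB16. The CON values were 83.75, 77.44 and 91.22 FPKM, the GA values 136.59, 118.53 and 142.48 FPKM and the GB values 90.86, 89.41 and 60.47 FPKM. All GA libraries lay above all others. The fall in GB vs. GA passed (log2FC -0.74, adjusted p = 0.00533), the rise in GA vs. CON did not (log2FC 0.65, adjusted p = 0.0846), and GB vs. CON gave -0.093 (adjusted p = 0.683).

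Of 35 genes of steroid synthesis and metabolism 30 were in the table and 22 were tested. By limma 0 passed in GA vs. CON (5 at an unadjusted p under 0.05), 3 were higher and 7 lower in GB vs. GA, and 2 were higher and 4 lower in GB vs. CON. The lower shares were 31.8% and 18.2%, against 19.2% and 17.3% of all tested genes, and the higher shares 13.6% and 9.09%, against 9.87% and 16.2%. The medians of log2FC were 0.058, -0.15 and -0.091. HSD17B12, a microsomal reductase that also acts in fatty acid elongation, rose from 73.3 FPKM in GA to 97.6 FPKM in GB (log2FC 0.41, adjusted p = 0.000341). STARD3, a cholesterol carrier of late endosomes, rose from 16.9 to 23.2 FPKM (log2FC 0.45, adjusted p = 0.00640). SRD5A1, a steroid 5-alpha-reductase whose substrates include P4, fell from 13.0 to 8.02 FPKM (log2FC -0.66, adjusted p = 0.00296). CYP1B1, which hydroxylates E2, fell from 75.7 to 58.3 FPKM (log2FC -0.37, adjusted p = 0.00552).

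**Figure D5:**
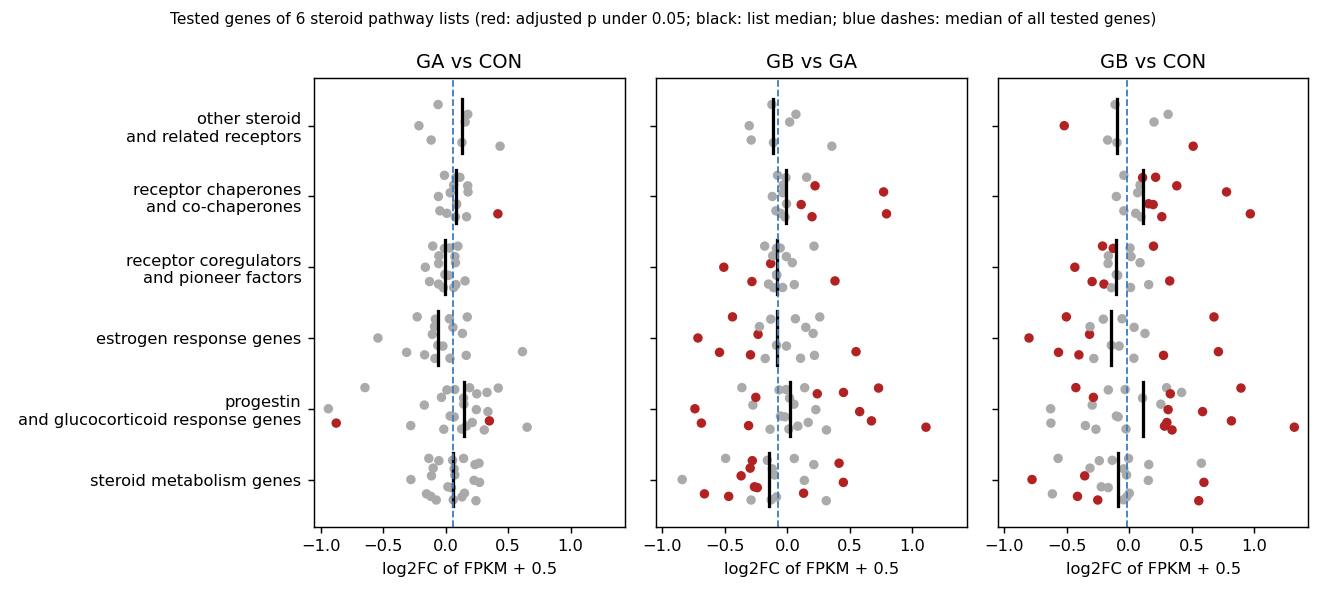
log2FC on the log2(FPKM + 0.5) scale of the tested genes of 6 steroid pathway lists, 1 point per gene, in the 3 comparisons. Red points had an adjusted p under 0.05, black bars are list medians and the blue dashes are the median of all tested genes. Few points are red in GA vs. CON, and DKK1 at 1.11 and 1.32 is the point farthest to the right in both comparisons with GB.

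The genes most like each member were ranked by Pearson's r of log2(FPKM + 0.5) over the 9 libraries among 12577 other tested genes, a description over libraries that share group differences. GREB1 was most like TOB1, an antiproliferative regulator (r = 0.992), LOC100850276 (r = 0.989) and DCTN4 (r = 0.986). TOB1 had 55.13, 57.90 and 62.87 FPKM in CON and between 100 and 113 FPKM in all 6 hormone-treated libraries, the step that GREB1 also had. The gene least like GREB1 was LEAP2, a liver-expressed peptide (r = -0.990), with 2.37, 2.44 and 2.09 FPKM in CON and listed at 0 in every GA and GB library.

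PGR was most like VPS13C (r = 0.989), DENND4C (r = 0.987) and ATAD5 (r = 0.987), and least like C7H19orf70 (r = -0.987). NR3C1 was most like PRRC2C (r = 0.994), LHPP (r = 0.990) and BMP4 (r = 0.989), and least like ZMIZ2 (r = -0.984). BMP4, a growth factor, ranged from 47.02 to 57.43 FPKM in CON, 56.16 to 62.91 FPKM in GA and 80.81 to 86.70 FPKM in GB. PGRMC2 was most like RABL3 (r = 0.979), NCOA4 (r = 0.976) and RIF1 (r = 0.976), and least like ADRM1 (r = -0.981). FKBP5 was most like MOCS2 (r = 0.961), KDELC2 (r = 0.958) and C1H21orf62 (r = 0.943), and least like MARCKS (r = -0.921).

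The neighbours of the 3 tested genes that passed no comparison were as follows. ESR1 was most like CLN3 (r = 0.942), RXFP4 (r = 0.935) and PIP4P1 (r = 0.931), and least like TRIM4 (r = -0.894). PGRMC1 was most like TERF2 (r = 0.939), MRPS6 (r = 0.938) and POC5 (r = 0.933), and least like SEMA4B (r = -0.922). FKBP4 was most like NACC1 (r = 0.908), CD36 (r = 0.899) and TMEM175 (r = 0.892), and least like HAT1 (r = -0.957). Among the members themselves, PGR, NR3C1 and PGRMC2 ran together (r from 0.914 to 0.929), GREB1 ran closest to FKBP5 (r = 0.875), and ESR1 had an r of -0.21 with GREB1 and of -0.22 with PGR.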

How the data were processed

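RNA of 9 BEND cultures was sequenced from poly-A-selected, directional libraries. The authors trimmed reads with fastp 0.21.0, removed rRNA reads with Bowtie2 (given as 2.33), aligned the rest to the bovine genome (ARS-UCD1.2) with HISAT2 2.2.1 and counted genes with RSEM 1.3.3. The values deposited by the authors are FPKM per gene and library. Their own test was DESeq2 1.34.0 on counts that were not used here. Whether strand was used in counting is not given in the sources used here. No sequence is printed, because the reference tables used here hold none.

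log2(FPKM + 0.5) was fitted in R 4.3.3 with limma 3.58.1 (variance trend) on all 9 libraries, for genes with a mean of at least 0.5 FPKM, and p-values were adjusted by the Benjamini-Hochberg method. The procedure was tested on simulated data. Ratios were compared with two-sided exact permutation tests. With 3 libraries a group, no search for outliers was made. Alternatives were other pseudocounts, filters and scalings, no variance trend, a replicate block, read GC content as a covariate, a fit of only the compared groups, and each library left out.

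The members and lists were chosen with earlier results of these data known. Genes named are the members, the receptors, each list's called genes and up to 4 others of smallest adjusted p, and for each tested member the 3 genes most like it and the 1 least like it. TFF1, TFF3, CCN5, SULT1E1, TAT, HSD17B6, HSD17B13, HSD3B2, CYP21A2, SRD5A2, PTPRC, CD3E, MS4A1 and EPCAM were not analysed here. Some further genes that the rule picks are not reported here, though the list counts include them.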

Additional observations from a re-analysis of the deposited data

How the results depend on the processing

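The rises of PGR in both comparisons with GB and of NR3C1 in GB vs. GA passed under all 21 alternatives, and that of GREB1 in GB vs. CON under 20 of them. Read GC content was higher in every CON library than in any GA or GB library, so it cannot be fully told apart from the group. With it as a covariate no gene of all those tested passed GA vs. CON, so the members passed and called there fell to 0, also with the replicate block added, and in GB vs. CON the members passed fell from 5 to 2, and to 1 with the block added. The members called in GB vs. CON, 2, fell to 1 with the GC covariate, a pseudocount of 1 and quantile normalization, where PGR was under the fold threshold, and was 1 to 2 when a library was left out. It was also 1 with GC and block, where PGR stayed called and GREB1 did not pass. The GREB1 log2FC in GB vs. CON was 2.06 (adjusted p = 0.115) with GC and block. With the GC covariate the genes passing GB vs. CON were 0 of the other receptors (2 without it), 4 of the chaperones (8), 1 of the coregulators (7), 5 of the estrogen (8) and 5 of the progestin and glucocorticoid (11) response genes and 3 of the metabolism genes (6). With only the compared groups fitted, 3 coregulators passed. Libraries with the same replicate number shared little deviation from their group means (correlations from -0.031 to 0.077). Differently numbered libraries were not compared, so this cannot tell whether the cultures were paired. With the replicate block alone, FKBP5 in GB vs. CON no longer passed (adjusted p = 0.0612), and the members passed stayed within 1.5 times.

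Sign changes were in differences that passed in neither fit. With the GC covariate the log2FC was 0.12 for ESR1, -0.12 for NR3C1, -0.051 for PGRMC2 and 0.057 for FKBP4 in GA vs. CON, and -0.0013 for PGRMC1 and 0.13 for FKBP4 in GB vs. CON. With GC and block it was 0.46 for ESR1, -0.034 for NR3C1 and 0.056 for FKBP4 in GA vs. CON, and 0.36 for ESR1 and 0.13 for FKBP4 in GB vs. CON. Median-of-ratios factors gave 0.060 for PGRMC1 and 0.0094 for FKBP5 in GB vs. GA and 0.0056 for FKBP4 in GB vs. CON, and rescaling to TPM gave 0.014 for PGRMC1 in GB vs. GA. Leaving out a library moved ESR1 in GA vs. CON from -0.12 to 0.12, PGRMC1 in GB vs. GA from -0.064 to 0.025, GREB1 in GB vs. GA from -0.0075 to 0.12 and FKBP4 in GB vs. CON from -0.048 to 0.045. The cause was not tested. The reads behind low values, those of ZBTB16 and of GREB1 in CON among them, are not known.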
